A study of Mus musculus with 75 samples.

Results

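Pdyn, Penk, Tac1 and Pnoc encode the precursor proteins of the opioid and tachykinin peptides, and their RNA was followed across nuclei of the 2 main projection neuron classes of the nucleus accumbens. The members are the 4 rows of the deposited count table that carry these mouse symbols, of 55401 gene identifiers in all. The nuclei came from male mice that carried the Cre-dependent allele LSL-eGFP::L10a, which tags cells with green fluorescent protein, together with D1-Cre or D2-Cre. Cre was therefore driven by the D1 or the D2 dopamine receptor gene, and a sorted nucleus is one in which that driver was active at some time. All mice received daily intraperitoneal injections for 10 days, then 30 days of withdrawal in the home cage, then 1 challenge injection, and tissue was taken 1 h later by a punch from both hemispheres. The cocaine dose was 20 mg/kg, given as cocaine hydrochloride in saline. In a group name such as D1_CS the receptor line comes first, then a letter for the repeated injection and a last one for the challenge, where S stands for saline and C for cocaine. Mice of the SS groups therefore never received cocaine. There were 10 libraries of D1_SS, 9 of D1_SC, 8 of D1_CS and 10 of D1_CC, and 9 of D2_SS, 9 of D2_SC, 10 of D2_CS and 10 of D2_CC. The labels number the libraries of a group but do not say how many mice went into each, so p-values measure the spread between these libraries.

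A neuropeptide is made as part of a long precursor that is cut at pairs of basic residues inside secretory vesicles. Proenkephalin (Penk) yields the enkephalins, which act mainly at delta and mu opioid receptors, prodynorphin (Pdyn) yields the dynorphins, which act mainly at the kappa receptor, and prepronociceptin (Pnoc) yields nociceptin, the ligand of the receptor encoded by Oprl1. Tac1 encodes protachykinin 1, the source of substance P and neurokinin A, whose main receptors are encoded by Tacr1 and Tacr2. In the striatum Pdyn and Tac1 are classical markers of medium spiny neurons with the D1 receptor and Penk of those with the D2 receptor, while Pnoc is known from interneurons and from particular islands of projection neurons.

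The feature that unites the family can be read from the coding sequence. In mm10 the genes lie at chr2:129686565-129699844 (Pdyn, minus strand), chr4:4133531-4138819 (Penk, minus strand), chr6:7554879-7565834 (Tac1, plus strand) and chr14:65400673-65425472 (Pnoc, minus strand). The coding sequences of GENCODE release M21 were searched in frame for the codons that open every opioid peptide (TANGGNGGNTTN), for those of nociceptin (TTNGGNGGNTTN) and for those that close a tachykinin (TTNNNNGGNNTNATG). Penk held 7 opioid cores, Pdyn 3, Pnoc 1 nociceptin core and Tac1 2 tachykinin cores, and each core lay within 1 coding exon. These sequences are shown because they set the peptides apart, with the core in capitals and the neighbouring codons in lower case.
Pdyn core 1: aaacgcTATGGCGGCTTTttgcgc
Pdyn core 2: aaacgcTATGGGGGCTTCctgcgg
Pdyn core 3: aagcgcTATGGTGGTTTCctgcgg
Penk core 1: aagaagTACGGAGGCTTCatgaaa
Penk core 6: aagaggTATGGGGGCTTCctgaag
Pnoc core 1: aaaaggTTTGGGGGCTTCaccggg
Tac1 core 1: cagcagTTCTTTGGATTAATGggcaag
Tac1 core 2: gattccTTTGTTGGACTAATGggcaaa
The 7 Penk, 3 Pdyn and 1 Pnoc cores all followed a pair of basic codons, where the precursor is cut. After the core the next codon was atg, for methionine, in 6 of the 7 Penk copies and a leucine codon in the other, and a leucine codon in all 3 Pdyn copies. The 2 Tac1 cores are each followed by ggc, for the glycine that is turned into the amide at the end of a tachykinin. Penk core 1 lies at chr4:4134331-4134354, Pdyn core 1 at chr2:129688235-129688258, Tac1 core 1 at chr6:7556744-7556770 and the Pnoc core at chr14:65404875-65404898.

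The 75 libraries held a median of 14893119 counts, from 19825 to 34870414, and 4 of them held under 1000000 (D1_SC 5, D2_CC 10, D2_CS 6 and D2_CS 9); these 4 enter the tests of all genes but not the group levels, ratios and correlations. Drd1 and Drd2 are the receptors that name the lines. In counts not divided by gene length, 15 of the 36 D1 libraries and 35 of the 35 D2 libraries of at least 1000000 counts held more Drd2. Per kb of gene span, the median per 1000000 counts was 17.9 for Drd1 and 0.872 for Drd2 in D1. In D2 these medians were 4.70 and 10.1. The order of the raw counts therefore does not by itself show that a library goes against its label. In D1_CC 4, 9 and 10 and D1_CS 4 the genes beside the receptor genes also lay on the side of the D2 line, so these are libraries labelled D1 whose reads go against the label. A quality rule on depth, detected genes, receptor ratio and correlation failed 19 of the 75 libraries. Reads on olfactory and vomeronasal receptor genes, which are silent in most brain cells, gave the density of stray reads; carried over all genes at that density they would make up a mean of 24.1% (D1_SC) to 56.6% (D1_CS) of a group's counts. For the 4 members, edgeR and ratio calls that change without the libraries failing the quality rule are given both ways.

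Penk was the most abundant of the 4 per length of gene, and Pnoc was close to the density of stray reads. Divided by that density, Penk had a median of 146 in the 36 D1 libraries and 282 in the 35 D2 libraries, Tac1 of 29.8 and 14.0, and Pdyn of 22.5 and 5.46. Pnoc had 1.67 and 1.56 and stayed under 2 in 29 of the 36 D1 and 28 of the 35 D2 libraries. Ranked per length among 21887 protein-coding genes, Penk stood at the median percentile of 99.9 in D1 and 99.98 in D2, Tac1 at 99.5 and 97.6, Pdyn at 98.99 and 91.8, and Pnoc at 47.2 in both. Pnoc had no count in D2_CS 4, where 3 counts, the limit that a count of 0 allows for counting error, would be 2.19 CPM (counts per 1000000 counts of the library).

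**Figure D1:**
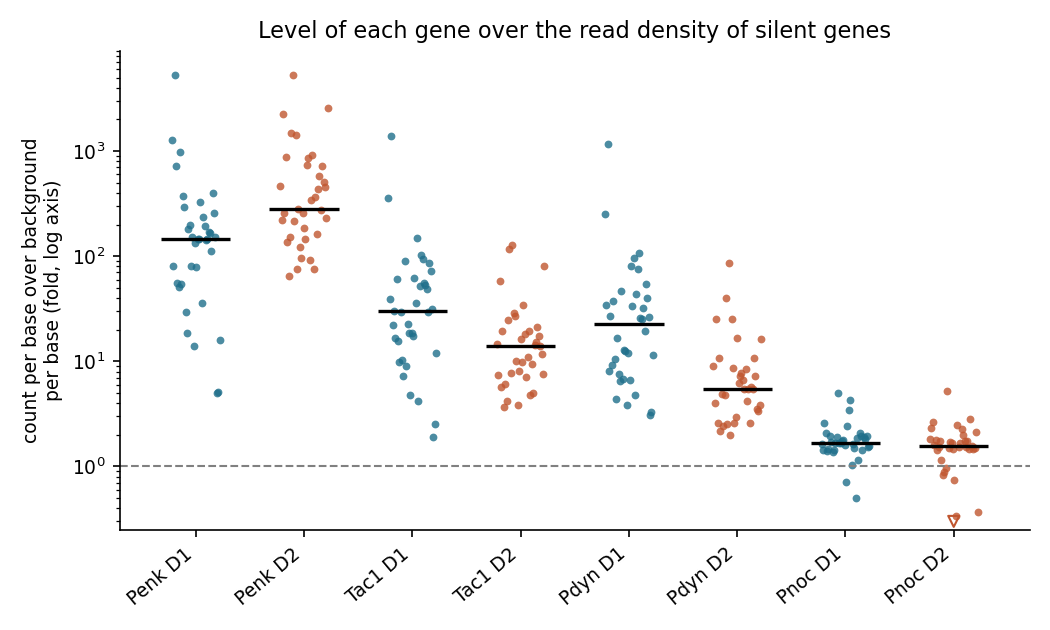
Count per base of each gene divided by the count per base of silent receptor genes, on a log axis, 1 point a library of at least 1000000 counts, black lines at the median, dashed line at the density of stray reads, and an open triangle at the lower edge for the 1 library with no Pnoc count. Penk medians are 146 in D1 and 282 in D2, while the Pnoc medians of 1.67 and 1.56 lie just above the dashed line.

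Pdyn, the dynorphin precursor, was the member with the clearest excess in the D1 line. In D1_SS its lowest, median and highest library held 18.9, 105 and 209 CPM, and in D2_SS 8.82, 21.1 and 44.3. Of the 10 D1_SS libraries only replicates 8 and 9 fell among the D2_SS values. The other D1 groups spanned 18.6, 62.4 and 222 CPM in D1_SC, 27.7, 48.2 and 85.9 in D1_CS and 28.8, 106 and 477 in D1_CC. D2_SC held 6.36, 27.6 and 43.4, D2_CS 7.32, 31.7 and 79.1 and D2_CC 11.2, 15.0 and 44.99. By median the 4 D1 groups stood above the 4 D2 groups, but neighbouring groups in that order overlapped in range at every step.

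Tac1, the substance P precursor, also had its highest medians in D1_CC and D1_SS. Its lowest, median and highest values were 9.63, 128 and 271 CPM in D1_SS, 20.8, 49.5 and 245 in D1_SC, 28.2, 66.1 and 125 in D1_CS and 53.0, 142 and 492.6 in D1_CC. In the D2 line they were 21.7, 59.6 and 71.3 in D2_SS, 16.2, 31.3 and 46.9 in D2_SC, 19.3, 46.0 and 138 in D2_CS and 18.2, 27.6 and 85.02 in D2_CC. The median of D2_SS lay above that of D1_SC, so the lines interleaved, and neighbouring groups overlapped throughout.

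Penk, the enkephalin precursor, ran the other way in most groups. D2_SS held 320, 786 and 1313 CPM and D1_SS 12.2, 231 and 612. In the 10 D1_CC libraries Penk fell into a low set of 124 to 180 CPM in 4 libraries and a high set of 688 to 1328 in 6, with no library between. Of the 6 high libraries 3 were D1_CC 4, 9 and 10, whose reads lay on the D2 side, at 1328, 980 and 688 CPM. The 7 others of the group had a median of 180 and reached 1189. D1_SC held 33.7, 87.1 and 383, D1_CS 39.8, 143 and 439, D2_SC 159, 271 and 749, D2_CS 111, 307 and 2998 and D2_CC 150, 390 and 1587. Penk shares 499 of its 5289 bases with A830012C17Rik on the other strand, whose median was 41.2 CPM in D1 and 58.7 in D2; no source used here says whether the counting used strand, so reads of that stretch could be assigned to either gene.

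Pnoc ranged from 0 to 23.9 CPM without separating the lines. Its group medians lay between 6.33 in D1_SC and 20.0 in D1_CS. The groups at the ends of this range were also those with the lowest and the highest mean share of stray reads, 24.1% and 56.6%, whose part in the Pnoc level was not tested.

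**Figure D2:**
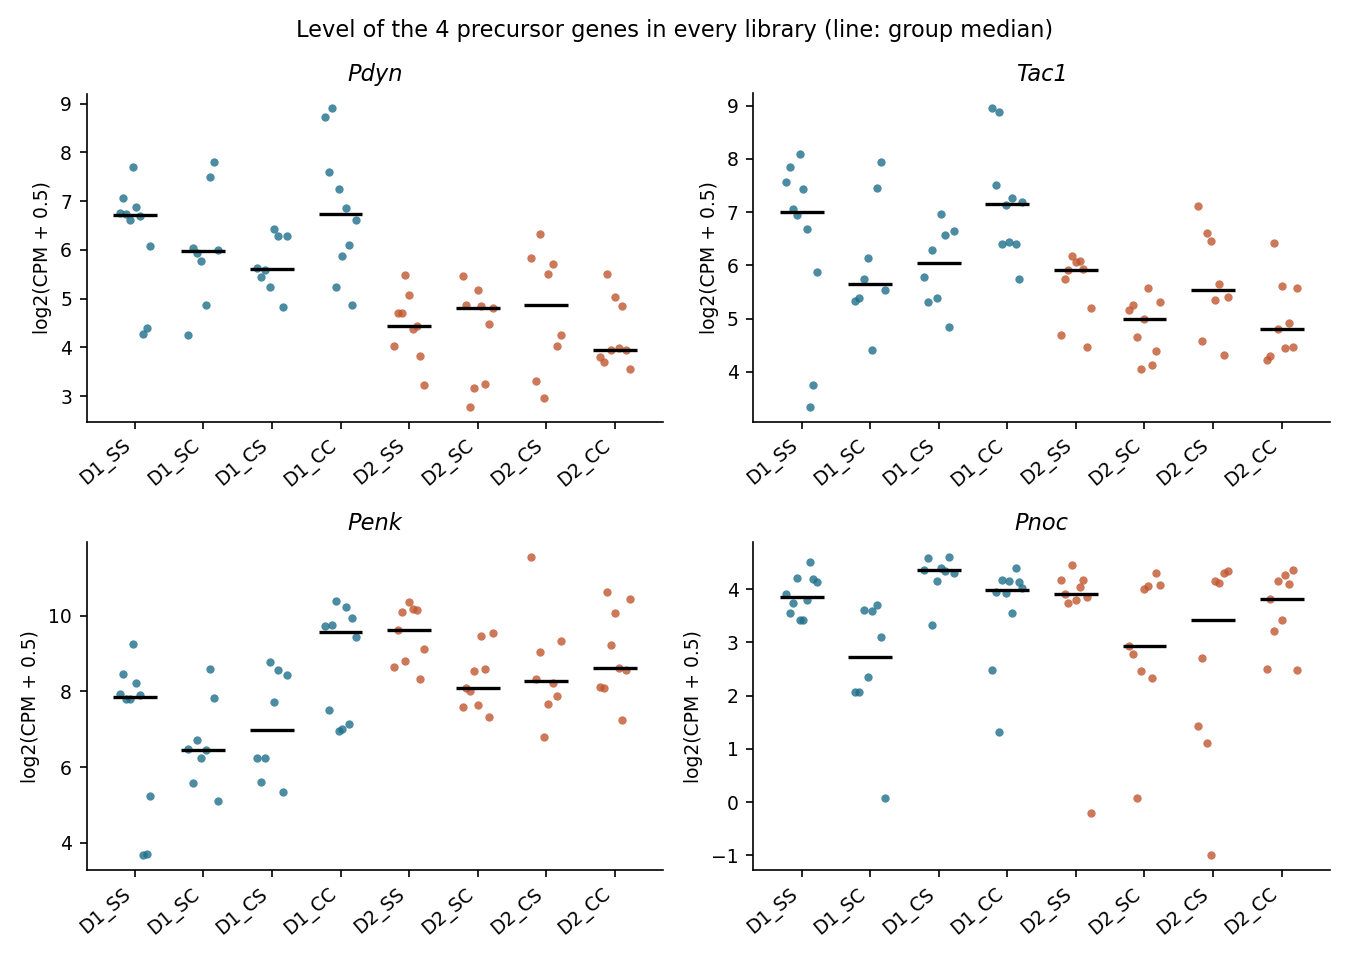
Level of each gene as log2(CPM + 0.5) in the 71 libraries of at least 1000000 counts, 1 point a library, by group, blue for the D1 line and orange for the D2 line, black lines at the group median. Pdyn and Tac1 are high in most D1 libraries and Penk in most D2 libraries, and the D1_CC libraries split into 4 low and 6 high Penk values.

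Across the 4 treatments, 3 of the 4 genes differed between the lines. In one edgeR quasi-likelihood fit over all 75 libraries, with Benjamini-Hochberg adjustment over 39250 genes, 0.204% of genes passed an adjusted p of 0.05 for the mean of the 4 D1 minus D2 differences. Pdyn was higher in D1 by 1.84 ± 0.25 on the log2 scale (SE, adjusted p = 8.44e-07), which is 3.57-fold. Tac1 was higher by 1.28 ± 0.25 (adjusted p = 0.00233), or 2.43-fold. Penk was 2.74-fold higher in D2, at -1.45 ± 0.29 for D1 minus D2 (adjusted p = 0.00409). Pnoc did not pass, at 0.04 ± 0.18 (adjusted p = 1.00).

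The receptors and other line markers gave the scale for these values in the same fit. Drd2 differed by -3.23 ± 0.28, Adora2a, the adenosine receptor of D2 neurons, by -1.98 ± 0.24, Drd1 by 1.73 ± 0.26 and Sfxn1, a D1 marker, by 1.75 ± 0.16. Without the 4 libraries labelled D1 on the D2 side Pdyn was 1.95 ± 0.25, Tac1 1.39 ± 0.25 and Penk -1.57 ± 0.31 (adjusted p = 7.57e-08, 7.02e-04 and 0.00377). With the 19 libraries failing the quality rule left out, Pdyn was 2.02 ± 0.27 (adjusted p = 2.19e-06) and Tac1 1.48 ± 0.30 (adjusted p = 0.00909), while Penk kept its size at -1.59 ± 0.38 but no longer passed (adjusted p = 0.0664). In bulk nuclei fewer positive nuclei and less RNA per nucleus cannot be told apart.

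Within single treatments fewer of these differences passed the test. In SS, with 0.0255% of genes called, none of the 4 passed: Pdyn was 2.02 ± 0.50 (adjusted p = 0.333), Tac1 1.26 ± 0.49 and Penk -1.88 ± 0.57. In that comparison 3 of the 4 had an unadjusted edgeR p under 0.05, DESeq2 called 1, with 0.0357% of genes called, and limma with library weights called 2, with 0.257%. In SC, with 1.17% called, Pdyn passed at 2.01 ± 0.51 (adjusted p = 0.0256) and Penk and Tac1 did not, at -1.54 ± 0.59 and 1.57 ± 0.51; 3 members had an unadjusted edgeR p under 0.05, DESeq2, with 1.28% of genes called, called Pdyn alone, and limma, with 30.1%, called Pdyn, Tac1 and Pnoc. In CS, with 3.59% called, Penk passed at -2.41 ± 0.63 (adjusted p = 0.0164), while Pdyn was 0.05 ± 0.51 and Tac1 -0.40 ± 0.51. In CC, with 0.0204% called, which is 8 genes, Pdyn passed at 3.27 ± 0.52 (adjusted p = 5.90e-04) and Tac1 at 2.70 ± 0.51 (adjusted p = 0.00579), and Penk was 0.02 ± 0.55.

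Several of these calls depended on a few libraries or on the scaling. The Penk call in CS did not pass with size factors in place of TMM scaling, at -1.73 ± 0.58 (adjusted p = 0.162). The Tac1 call in CC did not pass without the 4 shallow libraries, at 2.61 ± 0.55 (adjusted p = 0.0618). The size of the line difference was not shown to depend on treatment for any member: the D1 and D2 changes from SS were compared for SC, CS and CC, where 0.028%, 0.0892% and 0% of genes passed, and no member did. The lowest adjusted p was 0.505, for Pdyn in CS minus SS, at -1.97 ± 0.71; at an unadjusted edgeR p under 0.05 there were 0 members for SC, 2 for CS and 2 for CC, and DESeq2 and limma called 0 in each.

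**Figure D3:**
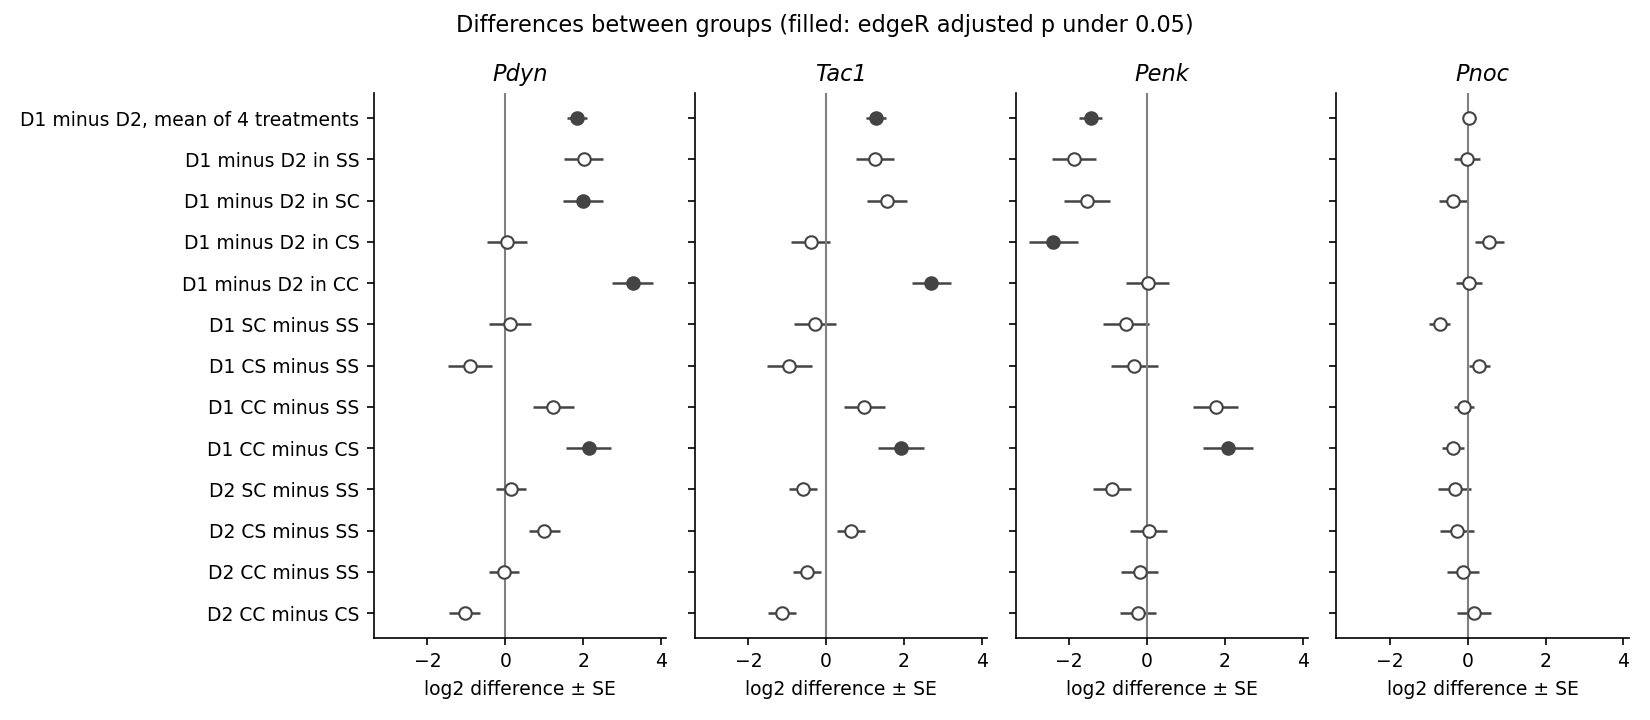
Log2 difference of each gene in 13 comparisons, with bars of 1 SE, filled where the edgeR adjusted p was under 0.05. Pdyn and Tac1 lie to the right and Penk to the left for D1 minus D2 in the mean of the treatments, and the filled points for D1 CC minus CS are Pdyn at 2.14, Tac1 at 1.93 and Penk at 2.09.

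The balance of the peptide genes inside a library does not depend on library scaling, and in SS it placed every D1 library above every D2 library. The log2 ratio of Pdyn to Penk counts, each plus 0.5, was -0.68 ± 0.98 in the 10 D1_SS libraries (mean and SD) and -5.08 ± 0.83 in the 9 D2_SS libraries, and all 10 D1_SS libraries lay above every D2_SS library (difference 4.40, exact permutation p = 1.08e-05, adjusted p = 2.17e-04 over 40 ratio tests). In linear terms the median D1_SS library held 0.440 Pdyn counts for each Penk count and the median D2_SS library 0.0255. D1_SS 8 and 9, low in Pdyn, Tac1 and Penk alike, were among the 3 D1_SS libraries with more Pdyn than Penk. In the other treatments the difference was 3.44 in SC, 2.47 in CS and 2.77 in CC, with adjusted exact permutation p of 0.00165, 0.0115 and 0.0153. The lines overlapped there, with 7 of 8, 6 of 8 and 6 of 10 D1 libraries above every D2 library.

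The ratio of Tac1 to Penk gave the same order. It differed by 3.36 in SS, with all 10 D1_SS above all 9 D2_SS libraries, by 2.87 in SC, with all 8 D1 above all 9 D2 libraries, and by 2.43 in CC, where 7 of 10 lay above (adjusted exact permutation p = 2.17e-04, 5.48e-04 and 0.0101). In CS it differed by 1.78 and missed the threshold (adjusted exact permutation p = 0.0531). With the libraries failing that quality rule left out, the CS difference was 2.50 (exact permutation p = 0.00216, adjusted p = 0.0124). The lowest D1_CC values of both ratios, at -5.15 for Pdyn to Penk in D1_CC 4 and -4.21 for Tac1 to Penk in D1_CC 9, lay within the D2 range. Both are libraries labelled D1 whose reads lay on the D2 side. D1_CC 7, which was not among the libraries on the D2 side, also lay within the D2_CC range, at -3.37 and -2.95. No ratio test was run with only the libraries on the D2 side left out.

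Pdyn against Tac1, both higher in D1, differed in SS by 1.04 (8 of 10 D1 libraries above every D2 library, adjusted exact permutation p = 0.00251) and did not pass in SC, CS or CC, at 0.56, 0.69 and 0.34. Pnoc against Penk passed in SS and CS, at 2.92 and 3.21 (adjusted exact permutation p = 0.0158 and 0.0273); Pnoc alone differed between the lines by -0.02 ± 0.34 in SS and 0.55 ± 0.38 in CS and passed in neither. With the libraries failing that quality rule left out, Pnoc against Penk in CS no longer passed, at 2.39 (exact permutation p = 0.0541, adjusted p = 0.167). None of the 24 ratio tests of a treated group against SS of the same line passed. The lowest adjusted p among them was 0.120, for Pdyn to Penk and Tac1 to Penk in D2_CS and Pdyn to Tac1 in D2_SC. Without the failing libraries 1 of the 24 passed, Pdyn to Tac1 in D2_CC against D2_SS, higher by 0.50 with 6 of 8 D2_CC libraries above every D2_SS library (exact permutation p = 0.00808, adjusted p = 0.0323); with all libraries it was 0.44 (adjusted p = 0.178).

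**Figure D4:**
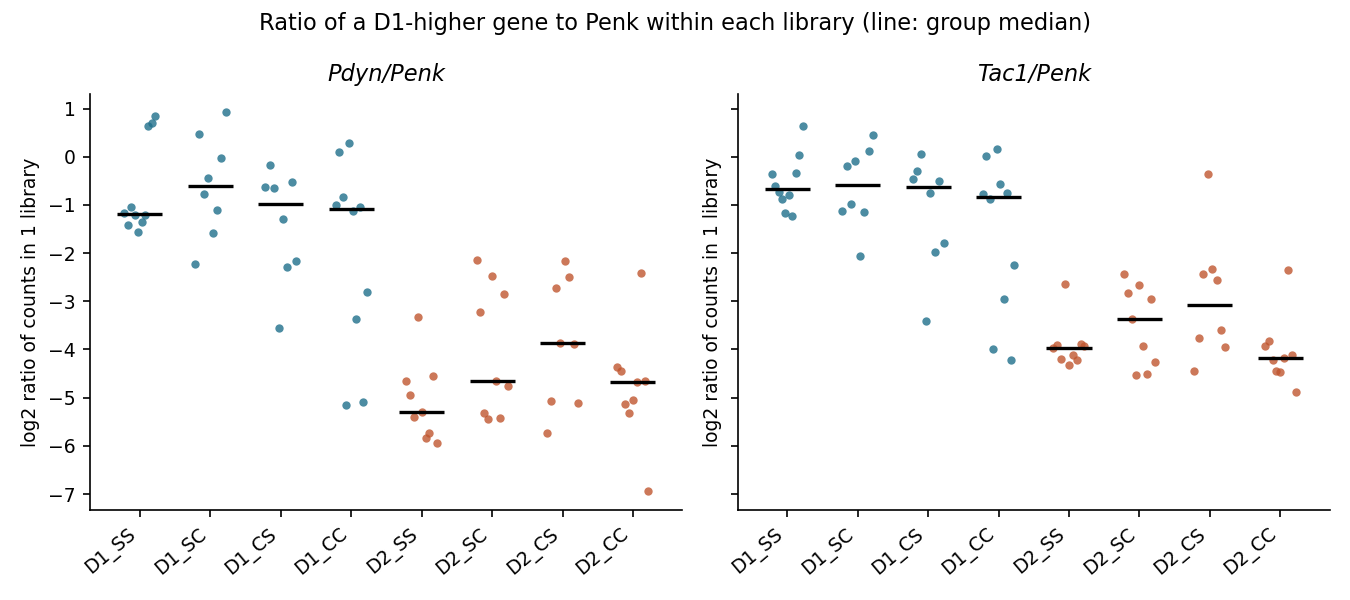
Log2 ratio of Pdyn to Penk counts and of Tac1 to Penk counts within each library of at least 1000000 counts, by group, blue for D1 and orange for D2, black lines at the group median. All 10 D1_SS points lie above all 9 D2_SS points in both panels. The lowest D1_CC points, at -5.15 (D1_CC 4) and -4.21 (D1_CC 9), reach into the D2 range, and both are libraries labelled D1 on the D2 side. D1_CC 7, not on the D2 side, also lies within the D2_CC range, at -3.37 and -2.95.

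A cocaine challenge after repeated cocaine was the single treatment contrast in which members passed. In D1, CC against CS, 3 of the 4 passed, all higher in CC, in a comparison that called 8.31% of 37721 genes and 8.28% as higher, which is 3123 genes. Pdyn was 2.14 ± 0.59 higher on the log2 scale (adjusted p = 0.0210), or 4.42-fold, Penk 2.09 ± 0.64 (adjusted p = 0.0342), or 4.25-fold, and Tac1 1.93 ± 0.59 (adjusted p = 0.0353), or 3.81-fold. Pnoc was -0.38 ± 0.27 (adjusted p = 0.561). The median of all genes tested was -0.09. In both groups the ranges overlapped for every member: Pdyn, for example, reached 85.9 CPM in D1_CS, and 6 of the 10 D1_CC libraries lay above that.

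These 3 calls were not stable. With size factors in place of TMM the median of all genes moved to -0.25 and the members to 1.67 ± 0.51 (Pdyn), 1.75 ± 0.61 (Penk) and 1.51 ± 0.53 (Tac1), and none passed, with adjusted p from 0.0631 to 0.105. The mean share of stray reads was 56.6% in D1_CS and 45.6% in D1_CC; with the log2 share as a covariate the changes were 1.23 ± 0.51, 1.83 ± 0.67 and 1.17 ± 0.54 and no gene in the table passed (5287 had an unadjusted p under 0.05). With the libraries failing that quality rule left out, no member passed (adjusted p = 0.205, 0.292 and 0.273), and again no gene did (5508 had an unadjusted p under 0.05). Leaving out D1_CC 1 or D1_CC 3, the libraries with the 2 highest Pdyn and Tac1 values, ended all 3 calls, with Pdyn at 1.81 and 1.55; leaving out D1_CS 2 or D1_CS 7 also ended all 3. Without the 4 libraries on the D2 side all 3 passed, at 2.50 ± 0.62, 2.27 ± 0.74 and 2.20 ± 0.66.

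Other genes passed in the same comparison, in which 8.28% of all genes were higher. Of the oligodendrocyte markers Cnp was among those higher, by 1.83 ± 0.39, and the summed level of the 7 such markers ranged from 108 to 206 CPM in D1_CS and from 186 to 459 in D1_CC, with medians of 188 and 206. Of the D2 neuron markers Adora2a was higher by 1.53 ± 0.42 and P2ry1 by 1.35 ± 0.40, and of the D1 markers Chrm4, Slc35d3 and Drd1 by 2.13, 1.95 and 1.81. These are single genes of their lists. The summed level of all D2 neuron markers had a median of 601 CPM in D1_CS (327 to 1032) and 560 in D1_CC (314 to 1443). For the D1 markers it was 567 (435 to 591) and 582 (351 to 981). Medium spiny neuron markers passed in 3 of 12 cases, among them Ppp1r1b at 2.23 and Ptpn5 at 1.37. Interneuron markers passed in 1 of 13, Sst, near the share over all genes, while none of 6 glutamatergic neuron, 7 astrocyte, 5 microglia, 4 endothelial and 4 choroid plexus markers passed (edgeR, with 1, 2, 0, 0 and 0 at an unadjusted p under 0.05). The part of these in the members' change was not tested.

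The other 4 comparisons within D1 called no member. For SC minus SS, which called 11.3% of genes, Pdyn was 0.12 ± 0.53, Penk -0.54 ± 0.59, Tac1 -0.28 ± 0.55 and Pnoc -0.72 ± 0.27 (adjusted p = 0.0719); 1 member had an unadjusted edgeR p under 0.05, DESeq2 called Pnoc, with 15% of genes called, and limma none. Pnoc passed by edgeR when D1_CC 3, D1_CS 3 or D1_SC 3, 6 or 7 was left out, with an adjusted p of 0.0376 to 0.0475. For CS minus SS and CC minus SS, in which 0% of genes passed, the members ranged from -0.95 to 0.29 and from -0.09 to 1.76. Penk in CC minus SS was 1.76 ± 0.58 (adjusted p = 0.695); 2 members had an unadjusted edgeR p under 0.05 there and 0 for CS minus SS, DESeq2 called 0 in both, and limma called 3 for CS minus SS, where it called 43.9% of all genes, and 0 for CC minus SS. For the interaction, the challenge effect after cocaine (CC minus CS) less the challenge effect after saline (SC minus SS), also with 0% of genes called, Penk was 2.63 ± 0.86 (adjusted p = 0.0819), Tac1 2.21 ± 0.80 and Pdyn 2.02 ± 0.78. For that interaction 3 members had an unadjusted p under 0.05, DESeq2 called Penk, with 7.56% of genes called, and limma none. Penk also passed by edgeR without D1_SC 7, at 2.92 (adjusted p = 0.0369).

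No member passed in any of the 5 comparisons within D2. For CC minus CS, with 0.252% of genes called and all of those lower, Tac1 was -1.13 ± 0.36 (adjusted p = 0.199) and Pdyn -1.05 ± 0.39 (adjusted p = 0.361); these signs are opposite to those in D1, and the difference between the lines was not tested for CC minus CS. For CS minus SS, with 0.0859% called, Pdyn was 1.00 ± 0.39. For SC minus SS, CC minus SS and the interaction, each with 0% called, Penk was -0.91 ± 0.49, -0.19 ± 0.47 and 0.68 ± 0.67. At an unadjusted edgeR p under 0.05 the members counted 2, 1, 0, 0 and 1 in these 5, and DESeq2 called 0 in each. Limma with library weights called 0, 2, 2, 3 and 0, all of them Penk, Tac1 or Pdyn at negative values, and of all genes it called 11.5% for CS minus SS, 13.6% for SC minus SS and 23.3% for CC minus SS, so the D2 result depended on how libraries were weighted.

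Across libraries of a line Pdyn and Tac1 rose and fell together. In the 36 D1 libraries the log2 CPM of the pair had Pearson r = 0.926 and Spearman rho = 0.942 (permutation p = 1.00e-05, the smallest that 100000 resamples can give, adjusted p = 6.00e-05 for r over 12 relations), and r = 0.905 without the 2 libraries farthest from the median. Centred by treatment group r was 0.920, and after regression on the stray read share 0.924. In the 35 D2 libraries r was 0.601 and rho 0.590 (permutation p = 1.50e-04, adjusted p = 6.00e-04), and 0.547 without the 2 farthest. Penk and Tac1 had r = 0.741 and rho = 0.677 in D1 (permutation p = 1.00e-05, adjusted p = 6.00e-05) and r = 0.568 and rho = 0.539 in D2 (permutation p = 4.90e-04, adjusted p = 0.00118), with 0.632 and 0.426 without the 2 farthest. Pdyn and Penk had r = 0.561 and rho = 0.525 in D1 (permutation p = 4.10e-04, adjusted p = 0.00118), 0.484 without the 2 farthest, and r = 0.268 and rho = 0.201 in D2 (permutation p = 0.119, adjusted p = 0.178). Of the 6 pairs with Pnoc none passed by r, with values from -0.282 to 0.345; by rho Pdyn and Pnoc in D1 passed at -0.381 (permutation p = 0.0228, adjusted p = 0.0457). Centred by treatment group, Pdyn and Pnoc in D2 passed by r, at 0.411 (permutation p = 0.0134, adjusted p = 0.0268) with rho = 0.222, and Tac1 and Pnoc in D1 by rho, at -0.418 (permutation p = 0.0115, adjusted p = 0.0229) with r = -0.332. The genes of 1 library share its depth and its stray reads. The D1 libraries here include the 4 on the D2 side, and no correlation was computed with just those left out.

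**Figure D5:**
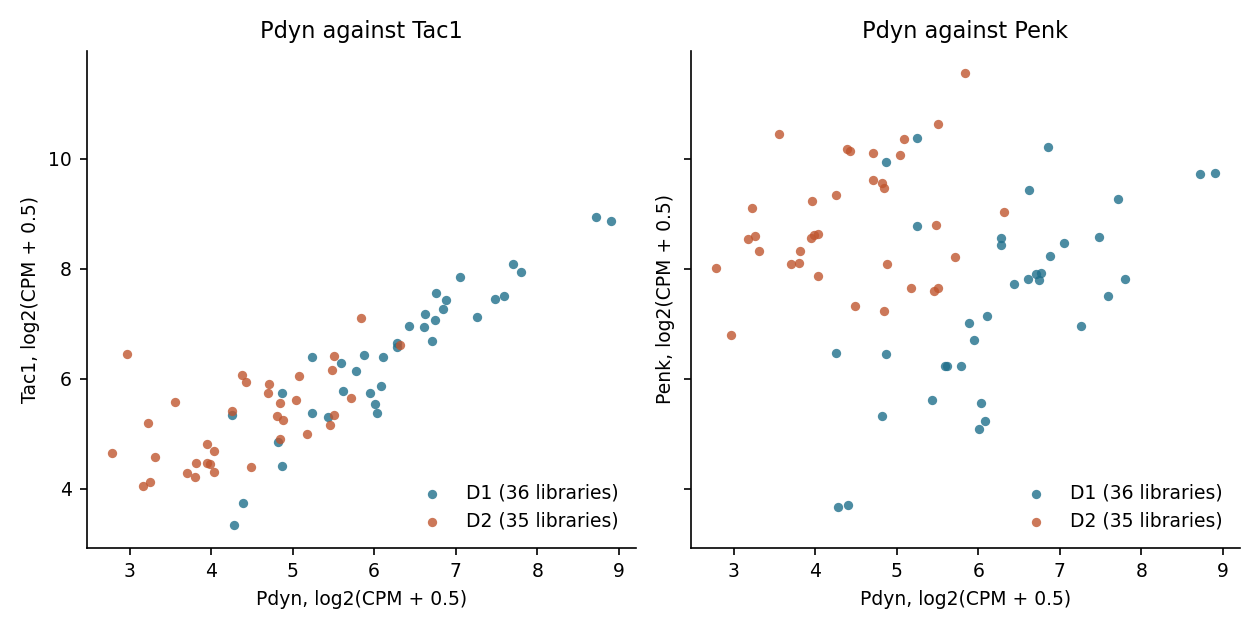
Tac1 and Penk against Pdyn as log2(CPM + 0.5), 1 point a library of at least 1000000 counts, blue for D1 (36 libraries) and orange for D2 (35 libraries). Pdyn and Tac1 lie along 1 band in D1 (r = 0.926), while Pdyn and Penk scatter widely and the D2 points sit at higher Penk for the same Pdyn.

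The genes whose level was most like that of each member were read from the mean over both lines of Spearman's rho, centred by treatment group, over the 36 D1 and 35 D2 libraries. For Pdyn they were Slc35d3, a D1 marker, at a mean rho of 0.947, Drd1 at 0.892 and Nefm, the medium neurofilament chain, at 0.872, where the median over 17185 genes was -0.02. For Penk they included Gpr6, a receptor of D2 neurons, at 0.881, and Stmn3 at 0.843. For Tac1 they were Nefl, the light neurofilament chain, at 0.905, Rgs4 at 0.897 and Chgb, a granin of secretory vesicles, at 0.892. For Pnoc they were Cyp2d9 at 0.943, Srd5a2 at 0.942 and Prokr1 at 0.935. Here the median over all genes was 0.403, against -0.15 for Tac1. The D1 libraries again included the 4 on the D2 side.

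Since Pdyn and Tac1 moved together, their promoters were compared. RefSeq tables for GRCm38.p6 held an entry for Pdyn, with 2 starts, and for Tac1. The 250 bases before each start were searched on both strands for the cAMP response element TGACGTCA, its core CGTCA, which the full element contains, the AP-1 element TGANTCA and the TATA box TATAAA. Tac1 held 2 copies of CGTCA, 197 and 43 bases before its RefSeq start and shown in capitals, and none of the others. The GENCODE span of Tac1 opens at chr6:7554879, within the window shown. Most of that window, with the copy nearer the RefSeq start, therefore lies inside the gene span given above. The window of the second Pdyn start, chr2:129698659-129698908, also lies inside the Pdyn span. Neither Pdyn start held any of the 4. Of 32536 promoters of the same length 17.9% held CGTCA, 1.56% the full element, 6.73% the AP-1 element and 12.3% the TATA box.
Tac1, chr6:7554811-7555060, plus strand: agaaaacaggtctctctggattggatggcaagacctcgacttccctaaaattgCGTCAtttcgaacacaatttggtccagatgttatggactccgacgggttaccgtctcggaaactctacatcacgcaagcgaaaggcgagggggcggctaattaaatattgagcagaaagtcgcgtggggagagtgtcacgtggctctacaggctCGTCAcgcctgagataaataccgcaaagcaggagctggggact
Pdyn, chr2:129699939-129700188, minus strand: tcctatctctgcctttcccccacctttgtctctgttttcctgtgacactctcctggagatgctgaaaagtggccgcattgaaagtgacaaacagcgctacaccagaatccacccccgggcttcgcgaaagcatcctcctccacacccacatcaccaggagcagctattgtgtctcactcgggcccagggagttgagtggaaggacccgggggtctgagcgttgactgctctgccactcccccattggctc

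Of the 7 receptors of these peptides, only Oprd1 passed between the lines over the mean of the treatments, where 0.204% of genes did. This delta opioid receptor, at which enkephalins act, was lower in D1 by -0.89 ± 0.13 (edgeR adjusted p = 2.03e-06), the same direction as Penk. It also passed in SC, with 1.17% of genes called, at -1.19 ± 0.26 (adjusted p = 0.00511). The kappa receptor Oprk1 was 0.18 ± 0.19, the mu receptor Oprm1 0.02 ± 0.11, the nociceptin receptor Oprl1 0.20 ± 0.20 and the tachykinin receptors Tacr1, Tacr2 and Tacr3 -0.22 ± 0.11, 0.07 ± 0.23 and -0.09 ± 0.13. For D1 CC minus CS, with 8.31% of genes called, 0 of 7 passed by edgeR (1 at an unadjusted p under 0.05), with Oprl1 nearest at 1.21 ± 0.43 (adjusted p = 0.0722). For D1 SC minus SS, with 11.3% called, Oprm1 was higher by 0.62 ± 0.21 and Tacr3 lower by -0.73 ± 0.24 (edgeR adjusted p = 0.0462 and 0.0446). With the libraries failing the quality rule left out, 0 of 38854 genes passed by edgeR in that comparison, so neither call held. With the log2 share of stray reads as a covariate 25 of 37721 genes passed, all of them higher. In D2, where 0% to 0.252% of genes were called, no receptor passed in any of the 5 comparisons, and none had an unadjusted edgeR p under 0.05.

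Some genes of the machinery that turns a precursor into peptide were also higher in D1 CC minus CS, where 8.28% of all genes were. Of 20 genes for processing enzymes, granins and vesicle proteins 9 were higher and 0 lower, with a median of 0.85 against -0.09 for all genes. Pcsk1n, the inhibitor of prohormone convertase 1, was higher by 2.42 ± 0.62, Scg2, a granin, by 2.22 ± 0.65 and Chga, chromogranin A, by 1.93 ± 0.48 (edgeR adjusted p = 0.0172, 0.0265 and 0.0170). Of 11 peptide-degrading enzymes 1 was higher, near the share over all genes, Thop1 at 1.30 ± 0.40 (adjusted p = 0.0330). Of 23 other neuropeptide precursors tested 4 were higher, among them Cartpt at 2.38 ± 0.65, Nts, the neurotensin precursor, at 2.25 ± 0.52 and Sst, the somatostatin precursor, at 2.05 ± 0.63, and their median of -0.07 was near that of all genes. With the libraries failing that quality rule left out, 0 of 38854 genes passed by edgeR, so no gene of these lists could. An unadjusted p under 0.05 was reached by 5508 of all genes, and by 10 processing, 1 degrading and 6 precursor genes.

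Regulators of peptide gene transcription, mostly AP-1 and CREB family genes and their partners, were higher in 5 of 20 cases and lower in 0 in that comparison, with a median of 0.63, beside the 8.28% of all genes that were higher. Jund was higher by 2.55 ± 0.63, Junb by 2.32 ± 0.63 and Egr1 by 2.11 ± 0.55 (edgeR adjusted p = 0.0170, 0.0203 and 0.0179). In D1 SC minus SS, where no peptide gene of the 4 passed, and where 9.7% of all genes were higher, 4 of the 20 were: among them Fosl2 by 1.17 ± 0.30, the CREB coactivator gene Crtc1 by 1.03 ± 0.28 and Kcnip3, which encodes the repressor DREAM known to bind the prodynorphin gene, by 1.01 ± 0.30. In the same comparison 3 of 20 processing genes were higher, Pcsk2, prohormone convertase 2, by 1.46 ± 0.31, Ptprn2 by 1.09 ± 0.27 and Cadps by 0.72 ± 0.18. These SC minus SS calls were not stable. With the libraries failing the quality rule left out, 0 of 38854 genes passed by edgeR (5436 had an unadjusted p under 0.05). The mean share of stray reads was 24.1% in D1_SC and 45.9% in D1_SS. With its log2 as a covariate 25 of 37721 genes passed. Between the lines, over the mean of the treatments, 0 of 20 processing genes passed by edgeR (2 at an unadjusted p under 0.05), while Isl1, a factor of D1 neurons, was higher in D1 by 0.94 ± 0.23 and Sp9, a factor of D2 neurons, lower by -1.04 ± 0.18.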

How the data were processed

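RNA was extracted from sorted nuclei with a Direct-zol kit and turned into libraries with the SMARTer Stranded Pico Input kit, per the labels' protocols. Raw counts and FPKM for 75 libraries were deposited by the authors; featureCounts, DESeq2 and the mm10 build are named in the submitters' processing notes, while no version, aligner or strand setting is given in the sources used here. The FPKM values deposited by the authors used the full gene span as length, which equalled that of GENCODE M21 for 54271 of 54271 identifiers compared, and served only to check lengths.

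The tests of counts used the quasi-likelihood method of edgeR 4.0.16 under R 4.3.3 (TMM, filterByExpr by group, Benjamini-Hochberg adjustment over all genes, threshold 0.05). The lines were fitted separately for treatment changes (37721 genes in D1, 36090 in D2) and together across lines (39250 genes). Alternatives were DESeq2 1.42.0, limma 3.58.1 voom with library weights, other scaling, no filter, the stray read share as covariate, a replicate block, and libraries left out. All p-values are two-sided. Standard errors come from the change and its test statistic. CPM divide a count by the library's total and multiply by 1000000. Stray read density is the counts over the span of 1464 olfactory and vomeronasal receptor genes, 12910 kb. Ratios of 2 genes used an added count of 0.5, and ratio tests were exact permutations, or 100000 resamples with 10 libraries in each group. The limit given for a count of 0 covers counting error only, while standard errors and SDs include the spread between libraries.

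The members and lists were chosen with earlier results of these data known. Named genes were the 4 members, all receptors, the line markers Drd1, Drd2, Adora2a and Sfxn1, and of each other list those that passed, or the 3 with the largest change where more than 3 passed; and for each member the 3 genes of highest mean rho among protein-coding genes with a mean log2 CPM of at least 1 and over 500 kb away. A few genes that this rule names are not reported here. On simulated D1_SS and D2_SS counts for 33758 genes, the test called 69 of 100 genes changed 2-fold and 99 of 100 changed 4-fold, with 5 false calls. The simulated counts were drawn independently for each gene and fitted as 2 groups alone. They hold no varying share of stray reads and no libraries against their label, so these rates need not hold for the real libraries.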

Additional observations from a re-analysis of the deposited data

Results flagged for a closer look

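Within 32 groups of a member's CPM, the highest or lowest library stood apart from the rest of its group, by the gap to its neighbour over the group's range, in 5. For normally distributed values such a rule flags about 1 in 20 groups. CPM were not shown to follow that distribution, so the number flagged cannot be set against this rate. Pdyn in D2_CC 10 was 101 CPM against 44.99 in the next library; this library held 19825 counts in all. Penk in D2_CS 1 was 2998 CPM against 989 in the next. Pnoc was 9.59 CPM in D1_CS 3, the lowest of 8 libraries, 38.03 in D2_CS 6, the highest of 10 and a library of under 1000000 counts, and 0.368 in D2_SS 9, the lowest of 9.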

How the results depend on the processing

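Of 72 edgeR results, the 3 line differences over the mean of treatments kept their direction under all alternatives run, and only the Penk call was lost, without libraries failing the quality rule (-1.59). Pnoc in that mean turned sign with limma weights (-0.15, adjusted p = 0.141). Pdyn, Penk and Tac1 in D1 CC minus CS missed the threshold with the stray read share as covariate (1.23, 1.83 and 1.17), with limma weights (0.69, 1.04 and 0.84), with size factors (1.67, 1.75 and 1.51) and without failing libraries (1.77, 1.80 and 1.59). Leaving out 1 of the 37 D1 libraries gave ranges of 1.55 to 2.32 for Pdyn, lost in 4 cases, 1.89 to 2.35 for Penk, lost in 7, and 1.45 to 2.17 for Tac1, lost in 8. Besides D1_CC 1 and 3 and D1_CS 2 and 7, these were D1_CC 7, D1_CS 1 and 5 for Penk and D1_CS 1, 4, 6 and 8 for Tac1. Penk in D1 minus D2 in CS missed it with the covariate (-1.78), limma (-1.03), size factors (-1.73) and without failing libraries (-3.10). Pdyn in SC missed it with the covariate (1.62, adjusted p = 0.05004), and Tac1 in CC without failing (2.65) or shallow libraries (2.61). Without failing libraries the ratios of Tac1 to Penk in CS (2.50) and Pdyn to Tac1 in D2_CC against D2_SS (0.50) passed, and Pnoc to Penk in CS (2.39) no longer did. The cause was not tested.

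Some values that did not pass in the edgeR fits with all libraries and no covariate turned sign in an alternative. With the covariate they were Pdyn D1 SC minus SS (-0.51) and Penk D2 CS minus SS (-0.46). With limma weights they were D1 CC minus SS for Pdyn (-0.17) and Tac1 (-0.065), the D1 interaction for Pdyn (-0.14), the D1 minus D2 difference of CS minus SS for Penk (1.24) and of SC minus SS for Pdyn (0.60), Tac1 in D1 minus D2 in CS (1.06) and D1 SC minus SS (0.58), Pnoc in D2 CC minus SS (0.16) and CS minus SS (0.23), Tac1 in the D2 interaction (0.39), and D2 CS minus SS for Pdyn (-0.20), Penk (-1.39, adjusted p = 0.00816) and Tac1 (-0.84, adjusted p = 0.0106). Of these only Penk and Tac1 in D2 CS minus SS passed with limma weights. Without failing libraries Penk in the D2 interaction was -0.31. Leaving out 1 D2 library turned Penk in CC minus CS (-0.50 to 0.72) and in CS minus SS (-0.90 to 0.29). Another 47 sign changes, each between values within 1 SE of 0, were taken as no change. Leaving out D1_SS 8 and 9 was chosen after seeing the data; with it the D1 interaction passed for Penk (2.93) and Tac1 (2.51).

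Replicate numbers did not pair the libraries: same-numbered libraries of a line had a median correlation of deviations of -0.02 in D1 and 0.06 in D2, and 5 of 36 and 3 of 35 libraries correlated best with their own number. With the replicate block D1 CC minus CS was 1.82 for Pdyn (adjusted p = 0.0602), 2.39 for Penk (0.0491) and 1.85 for Tac1 (0.0568), and Penk in D1 minus D2 in CS was -2.07 (0.0711); no other call changed. Depth limits Pnoc in D2_CS 4, where it had no count.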
